A study of Mus musculus with 12 samples.

Results

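Mutations of UPF3B cause X-linked intellectual disability in people, and 6 other genes of the same class of disorder were examined in the frontal cortex of mice that lack Upf3b. These were Fmr1, Iqsec2, Cask, Il1rapl1, Pak3 and Huwe1, picked out of the table by symbol; the list of 6 was drawn up with earlier results of these data known. Each has 1 row among the 14909 genes of the deposited count table, and all 6 had enough counts to be tested, as did 14274 genes in all. The comparison was between 5 Upf3b knockout mice (KO 1 to 4 and KO 6) and 7 wild-type mice (WT 1 to 7), all of strain C57BL/6, with 1 RNA sequencing library of dissected frontal cortex from each. The mice were housed free of pathogens and received no treatment that the labels name. Neither their age nor the construction of the allele is given in the sources used.

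UPF3B is a factor of nonsense-mediated mRNA decay, which degrades transcripts whose stop codon lies well upstream of an exon junction. The 6 genes act elsewhere in the neuron, most of them at the synapse. Fmr1 encodes FMRP, an RNA-binding protein that represses translation of neuronal mRNAs and whose silencing causes fragile X syndrome. Il1rapl1 encodes a synaptic adhesion molecule of the interleukin-1 receptor family, and Cask a scaffold of the membrane-associated guanylate kinase family that binds neurexins. Iqsec2 encodes an exchange factor for ARF GTPases at excitatory synapses, and Pak3 a kinase activated by the GTPases Rac1 and Cdc42 that regulates the actin of dendritic spines. Huwe1 encodes a very large ubiquitin ligase of the HECT family.

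Of the 6 genes, 1 rose in KO mice and none fell. Huwe1 was higher by a log2 fold change of 0.22 ± 0.080 (SE), with an adjusted p of 0.0478 by edgeR's quasi-likelihood test with Benjamini-Hochberg adjustment over all tested genes. The other 5 did not pass, at log2 fold changes from -0.089 to 0.24. In the same test 15.3% of all tested genes were called higher and 14.4% lower, so 1 call among 6 is near the background. No member had KO mice all above or all below the WT mice, against 5.84% and 4.8% of all tested genes. Among the 489 other tested genes of chromosome X, 9.82% were called higher and 18% lower (27.8% in all), with the groups apart upward in 3.89% and downward in 8.59%. By contrast Upf3b itself held 11 to 24 counts in the KO libraries and 157 to 219 in the WT libraries, so no library went against its label (log2 fold change -3.78 ± 0.13, edgeR adjusted p = 7.21e-11).

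**Figure D1:**
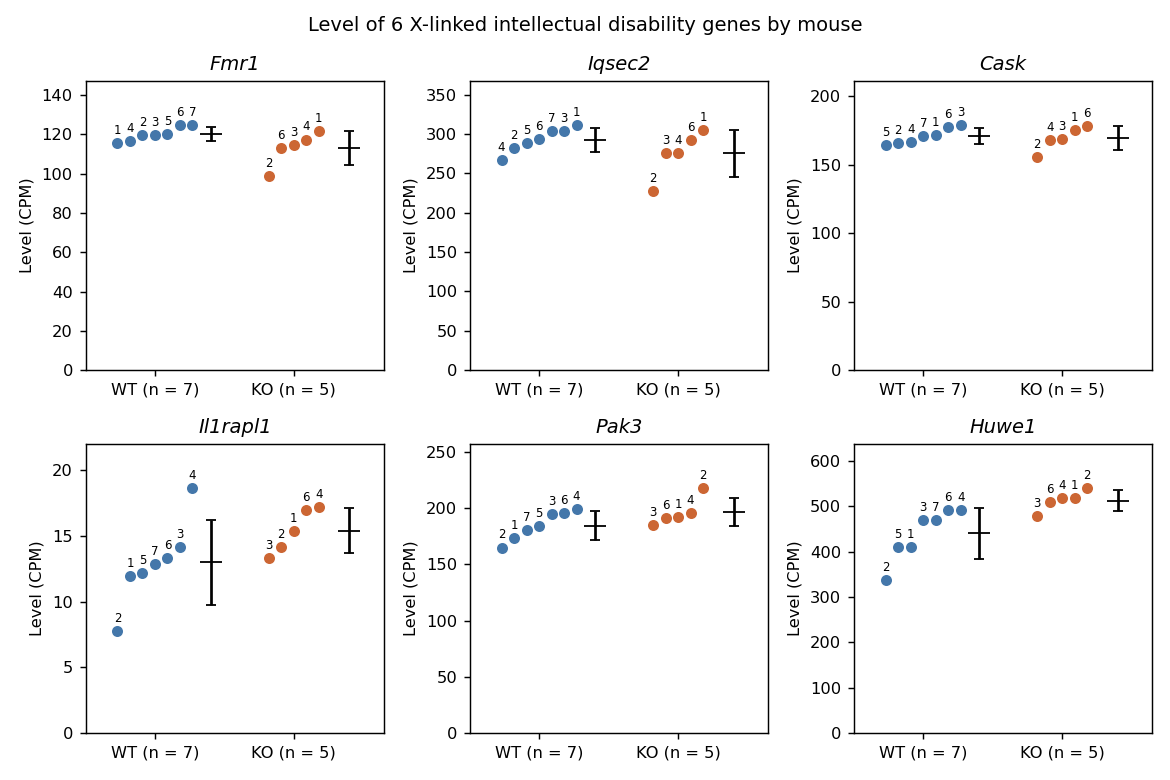
Level of each gene as depth-scaled counts (CPM, y axis, from 0) in 7 WT and 5 KO mice (x axis). Each point is 1 mouse with its number, and bars show the mean ± SD. In all 6 panels at least 1 KO mouse lies inside the WT range; in Huwe1 4 of the 5 KO mice lie above the highest WT mouse.

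Sequencing depth spanned 4684039 to 5425774 counted reads per WT mouse and 4990643 to 6617759 per KO mouse. Markers of cortical excitatory neurons such as Slc17a7 and Tbr1 had counts in every library, with at least 1829 and 715. Counts of the 4 Y-linked genes Ddx3y, Eif2s3y, Kdm5d and Uty were at least 153 in each library, so each mouse carried a Y chromosome. Of 7 pan-neuronal markers 6 were called lower in KO (summed level 2664 to 3006 CPM in WT and 2340 to 2843 in KO), and of 10 microglia markers 7 (676 to 831 against 592 to 636). Fold changes also followed count density, the counts per exonic base, from a median log2 fold change of 0.25 in the sparsest decile of genes to -0.18 in the densest. With offsets that remove each library's density trend, under which 16.5% of all genes were called, 0 of 7 pan-neuronal and 6 of 10 microglia markers were lower. The same offsets left 1 excitatory neuron, 1 inhibitory neuron, 2 astrocyte and 0 oligodendrocyte markers lower, and 2 oligodendrocyte precursor and 0 endothelial markers higher. Other offsets, chosen after seeing the data, removed each library's trend against exonic length instead, and 28.5% of all genes were called. Under them 7 of 7 pan-neuronal and 8 of 10 microglia markers were lower. So were 4 excitatory neuron, 3 inhibitory neuron, 4 astrocyte and 3 oligodendrocyte markers, while 2 oligodendrocyte precursor and 2 endothelial markers were higher. Without any offsets, of 11 excitatory neuron markers 4 were lower (2088 to 2364 CPM in WT, 1737 to 2317 in KO), of 9 inhibitory neuron markers 3 (875 to 1053, 821 to 974), of 8 astrocyte markers 4 (2368 to 2852, 2157 to 2571) and of 7 oligodendrocyte markers 3 (1546 to 1787, 1392 to 1658). Higher in KO were 3 of 5 oligodendrocyte precursor markers (339 to 397, 379 to 419) and 4 of 7 endothelial markers (228 to 272, 245 to 295). None of 4 choroid plexus markers (8.83 to 106, 13.1 to 89.6) and 6 striatum markers (468 to 1182, 541 to 983) was called. The part of these shifts in the results on the 6 genes was not tested, and in bulk tissue fewer cells of a type cannot be told apart from less RNA per cell.

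All 6 genes lie on chromosome X of the mm10 build, as Upf3b does (37091678 to 37110322, minus strand). None is close to it: the nearest, Cask, starts 23.2 Mb away. Cask spans 13517080 to 13851367 on the minus strand, Fmr1 68678541 to 68717963 on the plus strand and Il1rapl1 86740870 to 88115645 on the minus strand. Pak3 lies at 143518591 to 143797796, Huwe1 at 151800807 to 151935417 and Iqsec2 at 152144268 to 152225236, all on the plus strand. Their exonic lengths, from the RefSeq transcripts of the table matched to GENCODE M21, were 4409 bases for Fmr1, 6244 for Iqsec2, 8366 for Cask, 8835 for Pak3, 9133 for Il1rapl1 and 14579 for Huwe1. Cask, Pak3, Il1rapl1 and Huwe1 thus fell in the longest decile of tested genes, which starts at 6790 bases. Only 61 tested genes had a longer exonic sequence than Huwe1.

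Huwe1 is also the only member for which GENCODE M21 annotates transcripts as targets of nonsense-mediated decay, 4 of its 23. Of all tested genes 25.8% have such a transcript, and 21.1% of those were called higher, against 13.3% of the genes without one. Called lower were 12.7% and 14.9%. Whether this annotation goes with exonic length was not tested. In Huwe1-222, whose coding sequence is complete, the stop codon stands 2304 bases before the last exon junction. It lies in the fourth exon of that transcript (chromosome X, 151836222 to 151836329, 108 bases), at a position outside the exons of the RefSeq transcript. The stop codon (151836297 to 151836299, plus strand, mm10) is shown in capitals because it is the feature that the decay pathway would read.

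Huwe1-222 stop: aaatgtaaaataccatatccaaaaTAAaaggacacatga

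Huwe1-212 ends its reading frame at the same codon, only 30 bases before its last junction. In the other 2, whose annotated coding sequences lack a start, the stop codon lies in the last exon. The deposited counts are per gene, so these transcripts were not measured apart from the others of Huwe1.

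Levels per exonic length placed 5 of the genes close together and Il1rapl1 far below. In WT mice the order was Iqsec2 with 46.9 ± 2.47 CPM per kb (SD, n = 7), Huwe1 with 30.2 ± 3.92, Fmr1 with 27.2 ± 0.792, Pak3 with 20.9 ± 1.44, Cask with 20.4 ± 0.680 and Il1rapl1 with 1.42 ± 0.354. The WT ranges of Huwe1 and Fmr1 overlapped, as did those of Pak3 and Cask, while the other neighbours in this order did not overlap. In KO mice the order was the same. There Iqsec2 (36.5 to 48.9 CPM per kb) overlapped Huwe1 (32.9 to 37.1), Fmr1 (22.4 to 27.6) overlapped Pak3 (21.01 to 24.7), and Pak3 overlapped Cask (18.6 to 21.3). By its mean over all libraries Iqsec2 stood at percentile 88.2 of the tested genes with an exonic length and Il1rapl1 at percentile 6.68.

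Huwe1, the ubiquitin ligase, was the most heavily counted of the 6, with 1785 to 3478 counts per library. In WT mice its level ran from 337 to 493 CPM with a median of 469. The KO mice had 519 (KO 1), 541 (KO 2), 479 (KO 3), 518 (KO 4) and 509 CPM (KO 6). All 5 KO mice lay above the WT median, and KO 3 was the only one inside the WT range. The WT mice were spread widely, with WT 2 lowest at 337 CPM and WT 1 and WT 5 at 411 and 409, while WT 3, WT 4, WT 6 and WT 7 lay at 469 or more. KO mice averaged 513 ± 22.5 CPM (SD, n = 5) and WT mice 440 ± 57.2 (SD, n = 7), a 1.17-fold difference with a 95% interval of 1.04 to 1.31.

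The call on Huwe1 was a narrow one. It passed in 3 of the 12 edgeR fits that each left out 1 library, those without WT 2, WT 4 or WT 6, and the adjusted p over the 12 ran from 0.0272 to 0.0952. The direction was up in each of 26 fits with other settings or libraries, and 11 of them passed. With each library's trend against exonic length removed, a choice made after seeing the data under which 28.5% of all genes were called, the log2 fold change was 0.014 ± 0.036 (adjusted p = 0.796). With the trends against count density and then length both removed, also chosen afterwards, it was 0.14 ± 0.026 (adjusted p = 0.00290, 16.1% of all genes called). With the density trend alone removed it was 0.27 ± 0.082 (adjusted p = 0.0376), and with a term for the log2 library total 0.25 ± 0.14 (adjusted p = 0.456). That term left 0.666% of all genes called. Every KO library but KO 1 had a total above the highest WT total, so this fit can hardly tell genotype apart from depth.

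Long transcripts as a group were also counted at higher levels in KO libraries. Tested genes in the longest decile had a median log2 fold change of 0.15, against 0.034 for all tested genes and -0.12 for the shortest decile. The median deviation of 1408 such genes (the longest decile without the members) from their mean over the 12 libraries lay between -0.24 and 0.073 for WT mice and between 0.048 and 0.15 for KO mice on the log2 scale. WT 2 was the lowest library by this measure and by the level of Huwe1, and KO 2 the highest by both. Within groups, the deviation of Huwe1 followed that median with a Pearson r of 0.96 over the 12 libraries, and those of Pak3 and Il1rapl1 with 0.87 and 0.82. For Fmr1, Iqsec2 and Cask the values were -0.067, -0.27 and 0.093. These correlations describe libraries that share their RNA sample and depth with every gene in them, and no test was attached. Cask, close to Pak3 in length, thus had the lowest value of the 4 members in the longest decile.

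**Figure D2:**
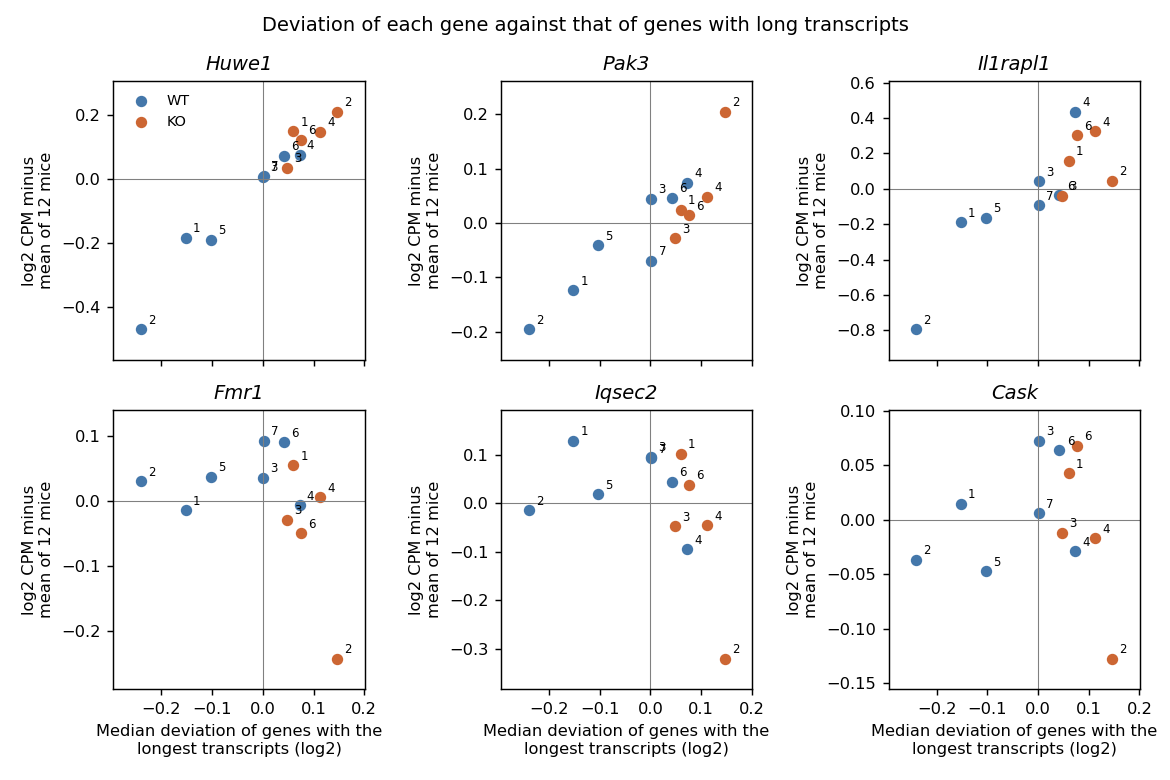
Log2 CPM of each gene minus its mean over the 12 mice (y axis), against the median of the same deviation in 1408 other genes of the longest decile by exonic length (x axis), in 7 WT and 5 KO mice, numbered. Huwe1, Pak3 and Il1rapl1 rise from WT 2 at the lower left, while Fmr1, Iqsec2 and Cask show no such rise and have KO 2 as their lowest mouse.

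The synaptic adhesion gene Il1rapl1 was weakly counted, with 41 to 112 counts per library. Its WT levels ran from 7.74 (WT 2) to 18.7 CPM (WT 4) with a median of 12.8. The KO mice had 15.3, 14.2, 13.3, 17.2 and 17.0 CPM in KO 1, 2, 3, 4 and 6, all above the WT median and all inside the WT range. The log2 fold change was 0.24 ± 0.16 (SE, edgeR adjusted p = 0.250), with a 95% interval from 0.942-fold to 1.49-fold. This interval, the widest of the 6, holds both no change and a 1.49-fold rise. Both extremes were WT mice. Without WT 2 the log2 fold change was 0.15 (adjusted p = 0.407), without WT 4 it was 0.35 (0.0564), and without both KO 2 and WT 4 it passed, at 0.38 ± 0.14 (0.0471), in a fit that called 30.6% of all genes. Il1rapl1 lies in the lowest decile of genes by counts per exonic base, whose median log2 fold change was 0.25. With density offsets its own was 0.038 ± 0.15.

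Pak3, the spine kinase, had 826 to 1403 counts per library. In WT mice it ran from 165 to 199 CPM with a median of 184. The KO mice had 192 (KO 1), 218 (KO 2), 186 (KO 3), 196 (KO 4) and 191 CPM (KO 6), all above the WT median and 4 of the 5 inside the WT range. KO mice averaged 197 ± 12.6 CPM (SD, n = 5) and WT mice 185 ± 12.7 (SD, n = 7). The log2 fold change was 0.091 ± 0.053 (edgeR adjusted p = 0.213), which corresponds to between 0.984-fold and 1.15-fold. Without KO 2, the highest mouse, it was 0.050 (adjusted p = 0.504). It passed narrowly after cyclic loess normalization, at 0.15 ± 0.053 (limma adjusted p = 0.0498, 27.9% of all genes called), and turned to -0.053 with length offsets. Close relatives such as Pak1 and Pak2 share sequence with Pak3, and how reads matching several genes were counted is not given in the sources used here.

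Cask, the scaffold, was nearly equal in both groups, with 169.1 ± 8.70 CPM among KO mice (SD, n = 5) and 170.8 ± 5.69 among WT mice (SD, n = 7). The WT mice ran from 165 to 179 CPM with a median of 171. The KO mice had 175, 156, 169, 168 and 178 CPM in KO 1, 2, 3, 4 and 6, and only KO 2 lay below the WT range. The log2 fold change was -0.015 ± 0.040 (edgeR adjusted p = 0.803), with an interval of 0.933-fold to 1.05-fold, the narrowest of the 6. With length offsets Cask was lower, at -0.15 ± 0.053 (adjusted p = 0.0422). Gpr34, a receptor gene that lies within Cask on the opposite strand, shares no exonic base with it.

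Iqsec2, the ARF exchange factor, had the highest level per length. Its WT mice ran from 266 to 311 CPM with a median of 293. The KO mice had 305 (KO 1), 228 (KO 2), 275 (KO 3), 276 (KO 4) and 292 CPM (KO 6), so 4 of the 5 lay inside the WT range and KO 2 below it. The log2 fold change was -0.089 ± 0.063 (edgeR adjusted p = 0.2997), or between 0.857-fold and 1.03-fold. KO 2 carried most of this difference, since without it the value was -0.028 (adjusted p = 0.715). The genes counted as densely as Iqsec2, in the ninth of 10 bins, had a median log2 fold change of -0.087, and with density offsets Iqsec2 stood at 0.017 ± 0.046.

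Fmr1 varied least among WT mice, from 116 to 125 CPM with a median of 120 and a coefficient of variation of 2.91%. The KO mice had 121 (KO 1), 98.8 (KO 2), 115 (KO 3), 117 (KO 4) and 113 CPM (KO 6). KO 2, KO 3 and KO 6 lay below the lowest WT mouse, KO 1 and KO 4 inside the WT range. KO mice averaged 113 ± 8.60 CPM (SD, n = 5) and WT mice 120.1 ± 3.49 (SD, n = 7). The log2 fold change was -0.089 ± 0.047 (edgeR adjusted p = 0.165), with an interval of 0.878-fold to 1.01-fold. It was negative in all 26 other fits and passed in 1, with length offsets, at -0.14 ± 0.048 (adjusted p = 0.0362). Without KO 2 it was -0.044 (adjusted p = 0.429), and with the term for the library total -0.00024 (adjusted p = 1.00).

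**Figure D3:**
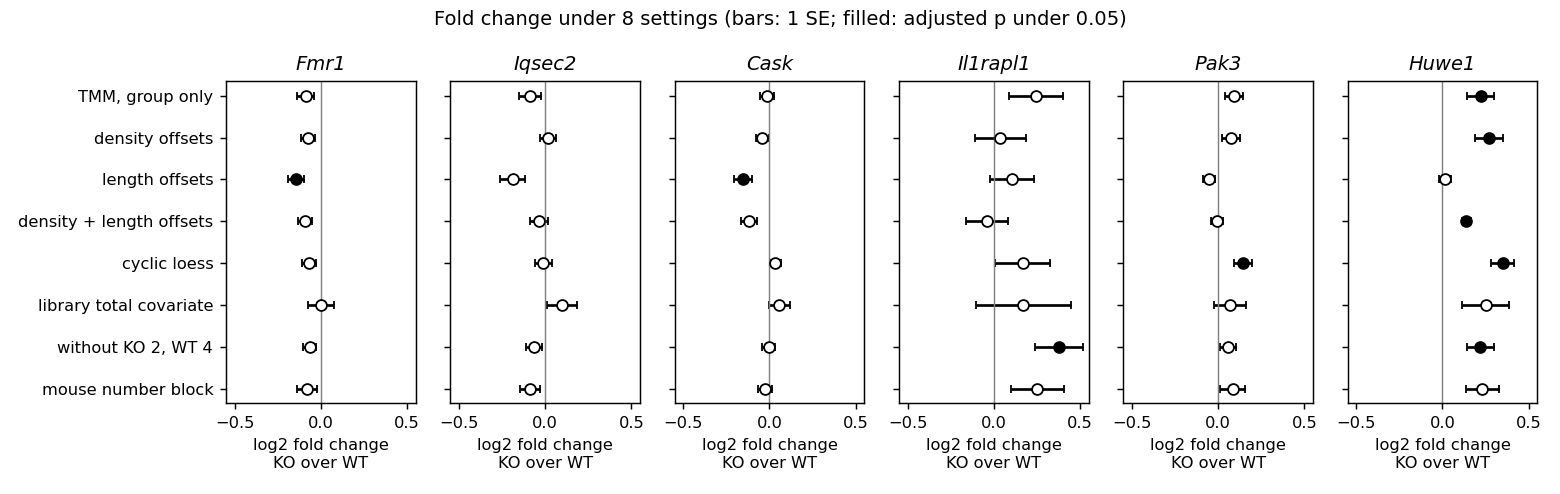
Log2 fold change of each gene, KO over WT (x axis), under 8 of the settings (rows); bars are 1 SE and filled points have an adjusted p under 0.05. Huwe1 lies above 0 in each row and near 0 with length offsets, and the other 5 genes pass in at most 1 row each.

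KO 2 stood at an extreme for 5 of the 6 genes. It was the lowest of the 12 mice for Fmr1, Iqsec2 and Cask and the highest for Pak3 and Huwe1. After the group means were subtracted, Pearson r was highest within 2 sets of 3 genes across the 12 libraries. It was 0.84 for Il1rapl1 with Huwe1, 0.82 for Pak3 with Huwe1 and 0.65 for Il1rapl1 with Pak3. It was 0.84 for Iqsec2 with Cask, 0.79 for Fmr1 with Iqsec2 and 0.68 for Fmr1 with Cask. Between the sets it ran from -0.53 to 0.28, lowest for Iqsec2 with Pak3. These values are descriptions of 12 libraries; the Spearman rho of Fmr1 with Cask was 0.39 and that of Fmr1 with Iqsec2 was 0.50, and KO 2 was the lowest mouse for all 3 genes. By rank the sets were not separate, since Cask with Il1rapl1, from different sets, had a rho of 0.40.

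Among 12164 other genes with a mean log2 CPM of at least 3, those most like Huwe1 in these within-group deviations were Cit, Mycbp2 and Dgkh, each with a Pearson r of 0.98 over 12 libraries. Cit encodes citron kinase and Mycbp2 another very large ubiquitin ligase of neurons; their exonic lengths were 9514 and 15233 bases. Dgkh, at 4998 bases, lies outside the longest decile. Pak3 was most like Dnm3, a dynamin (r = 0.97), then Kat7 and Cep350, both at 0.94. Il1rapl1 was most like Ubxn2b, Kcna3 and Prob1, at 0.93 to 0.94. In the other set Iqsec2 was most like Dab2ip (0.97), Camkk2 and Sgtb, Fmr1 most like Tbc1d9 (0.95), Nceh1 and Hgsnat, and Cask most like the receptor phosphatase gene Ptprj (0.91), Nrcam and Magi2. Of these 18 genes only Cit and Cep350 were called between the groups, against 29.7% of all tested genes. Both were higher in KO, with log2 fold changes of 0.29 and 0.38 and edgeR adjusted p values of 0.0237 and 0.00943. Cit lost its call without KO 4, at an adjusted p just over the threshold.

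The 6 genes were set beside 96 other tested genes whose human counterparts cause X-linked intellectual disability. Of these 14 rose, 18 fell and 64 did not pass, or 33.3% called against 29.7% of all tested genes, with a median log2 fold change of 0.021 against 0.034. No called gene of the list changed by 2-fold or more, and 24 of the 96 had a larger absolute log2 fold change than Huwe1. In 7 of them all KO mice lay above all WT mice, and in 6 all lay below, against 5.84% and 4.8% of all tested genes. The smallest p values belonged to Atp6ap2, an accessory protein of the vacuolar ATPase, which fell from 177 ± 5.25 to 148 ± 8.46 CPM, and to Lamp2, a lysosomal membrane protein, which fell from 135 ± 2.50 to 116 ± 4.04. Kdm5c, a histone demethylase, rose from 116 ± 7.47 to 145 ± 8.60 CPM, and Atp7a, a copper transporter, from 18.9 ± 2.38 to 27.2 ± 1.11. Their log2 fold changes were -0.27, -0.22, 0.32 and 0.53, with edgeR adjusted p values of 5.29e-04, 6.12e-04, 6.63e-04 and 6.96e-04. With density offsets all 4 still passed, at -0.081, -0.21, 0.30 and 0.38, and 9 of the list rose and 6 fell. With length offsets 10 rose and 28 fell, in a fit where 1686 of 14118 genes rose and 2344 fell. With the term for the library total, which can hardly be told apart from genotype, none of the 96 passed.

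**Figure D4:**
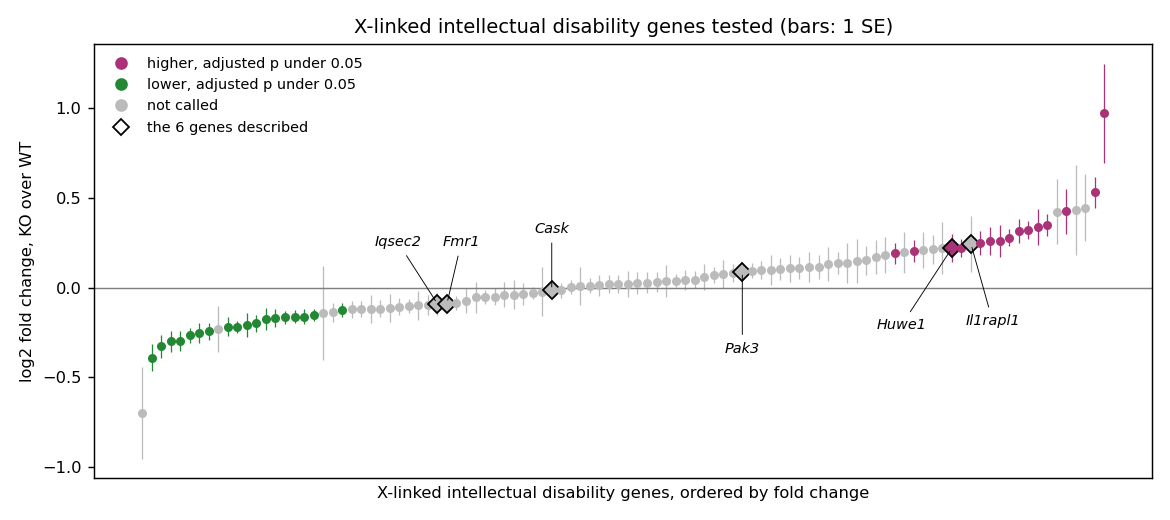
Log2 fold change, KO over WT (y axis), of the 6 genes (diamonds) and the 96 others (circles), ordered from lowest to highest; bars are 1 SE and colours give the call. Fmr1, Iqsec2, Cask and Pak3 lie in the flat middle of the series, and Huwe1 and Il1rapl1 among genes that rose by similar amounts.

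Lists of relatives and partners of each gene were counted in the same fit, against the 29.7% of all tested genes that were called. Of 14118 genes, 1198 rose and 1126 fell with density offsets, and 1686 rose and 2344 fell with length offsets. Of 28 tested relatives and partners of Huwe1, mostly other HECT ligases, 7 rose and 1 fell. Smurf2 rose from 67.9 ± 5.37 to 84.5 ± 4.10 CPM, with every KO mouse above every WT mouse, and Hectd2, Wwp1 and Smurf1 rose by log2 fold changes of 0.44, 0.19 and 0.13. Wwp1 missed the threshold without KO 4 (adjusted p = 0.0587). With density and length offsets Wwp1 missed it too (edgeR adjusted p = 0.122 and 0.121), as did Smurf1 (0.0665 and 0.401). Smurf2 and Hectd2 passed with either. With density offsets 4 rose and none fell, and with length offsets 3 rose and 5 fell. Over fits without 1 library the number that rose ran from 2 (without KO 4) to 8 (without WT 6), and Smurf1 passed in only 3 of these 12 fits. The median of the list was 0.045, near the 0.034 of all genes.

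The small GTPases that activate Pak3 were lower. Of 19 tested relatives and partners 6 fell and 2 rose; in 9 of the 12 fits without 1 library only 1 rose. With density offsets 3 rose and 3 fell, and with length offsets 1 rose and 7 fell. Rac1 fell from 207 ± 7.08 to 169 ± 14.7 CPM (log2 fold change -0.30 ± 0.049, edgeR adjusted p = 8.78e-04) and Cdc42 from 228 ± 4.95 to 192 ± 12.9 (-0.25 ± 0.041, adjusted p = 8.85e-04), both with no overlap between the groups. Cfl1, the actin-severing protein cofilin at the end of this pathway, fell by 0.29 on the log2 scale, and Ssh1, a phosphatase that activates cofilin, rose by 0.58. With density offsets Rac1 and Cfl1 still passed, at -0.19 and -0.12, and Cdc42 did not, at -0.063 (adjusted p = 0.0890).

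Of 15 relatives and partners of Iqsec2, 8 fell and 2 rose, and the median of -0.18 lay well below that of all genes. Calm2, whose product binds the IQ motif of the protein, fell by 0.39 on the log2 scale, the scaffold Dlg4 by 0.26 and the GTPase Arf1 by 0.25. With density offsets 3 fell and 2 rose, and with length offsets 10 fell and 1 rose. Calm2 and Dlg4 stayed past the threshold with density offsets, at -0.097 and -0.10, while Arf1 was at -0.027 and did not. With length offsets Calm2, Dlg4 and Arf1 all passed, at -0.31, -0.34 and -0.23.

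Of 14 genes listed for Fmr1, 3 rose and 3 fell. Fxr2, a paralog of Fmr1, fell by 0.14 on the log2 scale and Caprin1, an RNA granule protein that binds FMRP, by 0.18. Dicer1, the nuclease that makes microRNAs, and Tdrd3 rose by 0.25 and 0.24. With density offsets none rose and 2 fell, and of these 4 genes none passed. With length offsets none rose and 6 fell, and Dicer1 and Tdrd3 missed the threshold (adjusted p = 0.138 and 0.123). Of 21 genes listed for Cask 4 fell and none rose, which were Epb41l1, Lin7c, Lin7b and Mpp6, at log2 fold changes from -0.19 to -0.15. With density offsets 2 of the list rose and 1 fell, and of these 4 genes only Mpp6 passed, while Epb41l1 was at 0.026 and Lin7b at -0.027. With length offsets none rose and 7 fell. The 2 Lin7 proteins bind Cask directly. Each lost its call without certain libraries, Epb41l1 without KO 2, KO 3 or KO 4 (adjusted p up to 0.0581) and Lin7c without KO 4 or KO 6 (up to 0.0617). Lin7b lost it in 6 of 12 such fits and Mpp6 in 7 (up to 0.0832 and 0.101).

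Of 13 genes listed for Il1rapl1, 2 rose and 2 fell. The receptor Il1r1 rose from 6.11 ± 0.663 to 10.4 ± 0.809 CPM (log2 fold change 0.76 ± 0.11, edgeR adjusted p = 4.86e-04), with every KO mouse above every WT mouse, and it passed with density offsets (0.53) and length offsets (0.66). Ptprf, a receptor phosphatase of the family that binds Il1rapl1, rose by 0.23, and Ncs1 and Slitrk1 fell by 0.14 and 0.15. Ncs1 lost its call in 6 of the 12 fits without 1 library and Slitrk1 in 8, at adjusted p values up to 0.0782 and 0.0925. With density offsets Ncs1 turned to 0.024 (edgeR adjusted p = 0.519) and Slitrk1 missed the threshold (0.0832), while Ptprf passed. With length offsets Ptprf, Ncs1 and Slitrk1 all passed. With density offsets 4 of the 13 rose and 1 fell, and with length offsets 2 rose and 4 fell. Over all 6 lists 1 gene passed with the term for the library total, in the list for Iqsec2.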

How the data were processed

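The authors deposited whole-number read counts per RefSeq gene for 12 libraries, with no normalization. The tool STAR and the build mm10 come from the submitters' processing notes, per the labels; which counter was used, with which strand setting, is not given in the sources used here. The 23 symbols stored as dates were restored from their RefSeq accessions. Exonic length came from the RefSeq transcripts matched to GENCODE M21 (14734 genes by accession). Genes were filtered by filterByExpr, leaving 14274, and fitted with edgeR 4.0.16 in R 4.3.3 (TMM factors, quasi-likelihood test, group as the only term, Benjamini-Hochberg adjustment, threshold 0.05). CPM use TMM-scaled library sizes. In simulated data with 100 genes changed per size, the fit recovered 39% of log2 changes of 0.3 and 74% of 0.6. The changed genes were drawn at random from all tested genes and were far fewer than the 4233 called in the mice. These shares therefore do not give the chance of calling any of the 6 genes. Changes as small as theirs could be missed. Other settings used DESeq2 1.42.0, limma 3.58.1, other factors and filters, the mouse number as a block, offsets for density (counts per exonic base), cyclic loess, the library total, and leaving out libraries; length offsets were chosen after seeing the data. P-values set the difference between groups against the spread between mice. The 2 most similar libraries, WT 6 and WT 7, had a chi-square of 1.02 per degree of freedom, near the 1 of counting noise alone. This pair thus shows little spread between mice beyond that noise. Both were kept, and fits without either are among those that leave out 1 library.

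The members and lists were chosen with earlier results of these data known. Beside the 6 genes and Upf3b, the text names up to 4 passing genes of each list by smallest p, and the 3 genes most like each member by Pearson r of log2 CPM (prior count 2); 1 gene that this rule names is not reported here, and others were chosen after their values were seen.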

Additional observations from a re-analysis of the deposited data

Results flagged for a closer look

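Dixon's gap test, run within each group, flagged no library for any of the 6 genes. In groups this small it flags only wide gaps. KO 2 went unflagged for Pak3 at 218 CPM, where the other KO mice lay at 186 to 196. Over the 6 genes, Upf3b and the genes named from the lists, 8 of 68 groups had a flagged library, all in listed genes. Chance alone flags about 1 in 20 independent groups. The genes most like each member, Mid1 and Gpr34 were not examined. These groups share the same 12 libraries and are not independent, so the count is no measure of an excess. In 5 of the 8 it was KO 1, lying above the other KO mice: for Cdc42 at 215 CPM (the other KO mice 183 to 192), Arf1 at 196 (159 to 168), Rac1 at 194 (159 to 169), Cfl1 at 167 (129 to 135) and Atp6ap2 at 163 (143 to 145). KO 3 lay above the other KO mice for Lamp2, at 123 CPM (113 to 116). WT 4 lay below the other WT mice for Slitrk1, at 145 CPM (159 to 170), and for Cfl1, at 154 (166 to 172). KO 1 had the lowest total of the KO libraries, 4990643 counts, close to those of WT, and WT 4 the highest of WT, 5425774; their part in these values was not tested.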

How the results depend on the processing

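Huwe1 lost its call with DESeq2 size factors (0.20, adjusted p = 0.0628), no filter (0.21, 0.0585), a filter of 1 CPM in 5 libraries (0.22, 0.05002), the library total as a covariate (0.25), length offsets (0.014) and the mouse number as a replicate block (0.23, 0.125). The block fit kept only mouse numbers shared by both groups, so it also left out WT 5 and WT 7. Over fits without 1 library each it ran from 0.16 to 0.25, and members called from 0 to 1. Under each of these 6 settings 0 members were called higher, as at a threshold of 0.01, against 2 after cyclic loess (Huwe1, and Pak3 at 0.15) and without KO 2 and WT 4 (Huwe1, and Il1rapl1 at 0.38). Length offsets called 2 lower, Fmr1 (-0.14) and Cask (-0.15). Signs turned for Iqsec2 with density offsets (0.017) and the library total (0.098), for Cask after cyclic loess (0.033), with the library total (0.056) and without KO 2 (fits without 1 library -0.035 to 0.014), for Pak3 with length offsets (-0.053) and both offsets (-0.0083), and for Il1rapl1 with both (-0.041). Upf3b was called in all 26 fits.

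Among all tested genes 2183 rose and 2050 fell, against 1132 and 1181 with the replicate block, 1198 and 1126 with density offsets, 1160 and 1117 with both offsets, 84 and 11 with the library total, and 1006 and 1145 at 0.01. With length offsets 1686 rose and 2344 fell. In the fit with the library total, depth can hardly be told apart from genotype. Same-numbered libraries were not shown to be paired: the correlation of their deviations ran from -0.38 to 0.14, and none of the 5 KO libraries correlated best with its own number.

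Counts of 41 to 112 limit Il1rapl1. Mouse number 5 has no KO library here.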

Other observations

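The largest log2 fold change among the called X-linked intellectual disability genes was that of Mid1, a ubiquitin ligase gene that spans the pseudoautosomal boundary in laboratory mice. It rose from 32.5 ± 8.61 to 64.1 ± 33.9 CPM (log2 fold change 0.97 ± 0.28, edgeR adjusted p = 0.0161), and its groups overlapped. Without KO 6 it missed the threshold (adjusted p = 0.0520). Gpr34, a receptor gene of microglia that lies inside Cask, fell from 31.6 ± 4.12 to 24.1 ± 1.96 CPM (log2 fold change -0.40 ± 0.093, edgeR adjusted p = 0.00587), while Cask itself did not pass. Both genes were chosen after their values were seen.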
